A study of Mus musculus with 6 samples.

Results

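The cytosolic ribosomal protein genes encode the proteins of the ribosome that translates nuclear mRNAs. They were taken by symbol, as every gene named Rpl or Rps with a number and at most 1 of the closing letters a, l or x, together with *Rplp0*, *Rplp1*, *Rplp2* and *Rpsa*. The rule found 81 genes among the 23183 gene symbols listed for every library, 49 of the large and 32 of the small subunit. *Fau*, *Rps3a1* and *Gnb2l1* (RACK1) also encode ribosome proteins but have other names, and they are given apart. RNA was sequenced from cerebral microvessels of 3 WT mice (TEK-cre, *Crif1*+/+) and 3 TEKCRIF1 KO mice (TEK-cre, *Crif1* flox/flox), 1 library per mouse, on a C57BL/6 background by the labels. Both groups carry Cre under the Tek promoter, which is active in endothelial cells and in some blood cells, so other cells in a preparation keep *Crif1* in KO mice too. The labels give no age or sex. Each value is an FPKM, a fragment count scaled to the length of the exons and to the depth of the library, so levels of different genes are compared per length.

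A ribosome holds a single copy of most of these proteins, and cells keep their mRNAs at similar levels. Many of the mRNAs start with a C followed by a run of pyrimidines, the 5′ terminal oligopyrimidine (TOP) motif, through which mTOR and LARP1 control their translation together. Crif1 protein belongs to the mitochondrial ribosome, a separate particle with its own proteins, and its loss affects the synthesis of respiratory chain subunits.

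The start sites of the genes are shown first because the TOP motif is the sequence feature that the family is known for. RefSeq promoter entries (GRCm38.p6) were found for 60 of the 81 genes. A run of at least 8 pyrimidines beginning with C, on the strand of the gene and within 25 bases of the listed start, was present in 34 of the 60 (56.7%), against 18.5% of the 27025 genes with an entry. The lines below give 15 bases on each side of the listed start for 4 highly expressed large subunit genes and 2 small subunit genes with a run, with the run in capitals, and for the 3 rarely detected paralogues *Rpl3l*, *Rpl10l* and *Rpl39l*, in which no such run was found.
Rpl38 (chr11:114668565-114668594, + strand): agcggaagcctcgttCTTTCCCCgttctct
Rpl28 (chr7:4792950-4792979, + strand): ccgcctctcgtgtCTCTCTTTCCgtctccg
Rplp2 (chr7:141447636-141447665, + strand): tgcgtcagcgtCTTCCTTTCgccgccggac
Rpl35 (chr2:39005117-39005146, - strand): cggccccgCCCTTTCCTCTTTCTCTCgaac
Rps18 (chr17:33955651-33955680, - strand): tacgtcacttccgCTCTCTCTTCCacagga
Rps10 (chr17:27635230-27635259, - strand): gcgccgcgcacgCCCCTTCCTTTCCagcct
Rpl3l (chr17:24727811-24727840, + strand): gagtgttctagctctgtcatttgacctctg
Rpl10l (chr12:66284387-66284416, - strand): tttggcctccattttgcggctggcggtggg
Rpl39l (chr16:10170213-10170242, + strand): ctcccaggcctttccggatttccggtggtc

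In *Rpl38* the run began at the listed first base of the transcript, and in the other 5 genes with a run it began 2 to 7 bases before that base. The listed start can belong to another transcript than the one in use. A run was counted anywhere in the window and need not begin at the first base. A gene with a run is therefore not shown to have a TOP mRNA. In *Rpl41* and *Rps15*, which were among the highest members, no run was found near the listed start, which says only that these letters are not in that window. Runs were found in 22 of 37 large subunit entries (59.5%) and 12 of 23 small subunit entries (52.2%). Other letters searched in the 300 bases of each entry, on both strands, were CCGGAAG, the kind of site that ETS factors bind, in 41.7% of the 60 members and 9.93% of all entries, AAGATGG, the core of YY1 sites, in 15% and 7.28%, and the core promoter letters TATAAA in 10% and 15.7%. Among the genes tested for expression that have an entry, the run was present in 59.6% of 57 members and 20% of 10698 genes, CCGGAAG in 42.1% and 18.4%, AAGATGG in 15.8% and 8.05%, and TATAAA in 10.5% and 8.73%, so that the lower share of TATAAA in the members holds only against all entries. A match is a description of the sequence and was not tested as a site.

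The deleted gene was lower in the KO libraries. *Crif1* (*Gadd45gip1*) stood at 18.8, 15.3 and 16.5 FPKM in the WT mice and at 10.8, 7.54 and 10.4 FPKM in the KO mice, in the order of their numbers, with no overlap (log2 fold change −0.77, limma unadjusted p = 0.00534, adjusted p = 0.841). Depth, estimated from the spacing of the smallest values, was 8900000 to 11600000 fragments in WT and, for the KO mice in the same order, 8000000, 6500000 and 11900000, which made KO 2 and then KO 1 the shallowest libraries. All 10 endothelial markers were detected in every library, with a summed level of 1010 to 1440 FPKM in WT and 903 to 1233 in KO. Astrocyte markers summed to 610 to 724 FPKM in WT and 477 to 518 in KO. The 6 choroid plexus markers summed to 3003 to 3452 FPKM in WT but to 9040, 3055 and 10950 in KO 1, KO 2 and KO 3. Pericyte markers summed to 828.9 to 1327 FPKM in WT and 866.2 to 969.6 in KO, with a median log2 fold change of −0.29. Neuronal markers summed to 253.7 to 537.7 FPKM in WT and to 255.4, 448.2 and 200.1 in the KO mice. Smooth muscle markers summed to 370.5 to 837.8 FPKM in WT and to 1049, 398.1 and 574.6 in the KO mice, with KO 1 above every WT library. Oligodendrocyte markers summed to 434.3 to 578.5 FPKM in WT and to 481.3, 434.2 and 253.3 in the KO mice, with a median log2 fold change of −0.48. Of these markers 3 of 7 had an unadjusted limma p below 0.05, against 5.88% of all genes tested. So had 2 of 8 pericyte and 2 of 7 astrocyte markers, and at most 1 in each other list. Fibroblast markers summed to 1205 to 1809 FPKM in WT and 800 to 1105 in KO, without overlap, and microglia and macrophage markers to 166.3 to 215.7 in WT and 139.5 to 166.4 in KO. The 4 erythroid markers in the files summed to 1765 to 2425 FPKM in WT and to 2341, 1291 and 1209 in the KO mice, so that KO 2 and KO 3 were below every WT library. The part of these cell types in the results below was not tested, and in such bulk samples fewer cells of a type and less RNA per cell cannot be told apart.

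Ribosomal protein mRNAs were among the most abundant in the microvessels. Of the 100 genes with the highest mean FPKM, 43 were members. Of the 81 members, 78 reached 1 FPKM on average and were tested, 46 of the large and 32 of the small subunit. Their median level was 614.9 FPKM, 71 of them stood at 100 FPKM or more and 12 at 1000 or more. Together the members held 11.4%, 12.1% and 12.7% of the summed FPKM in WT mice and 12.5%, 9.41% and 11.9% in KO mice. The share was 12.1% ± 0.608 (SD, n = 3) in WT and 11.3% ± 1.63 (SD, n = 3) in KO, and the groups overlapped.

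**Figure D1:**
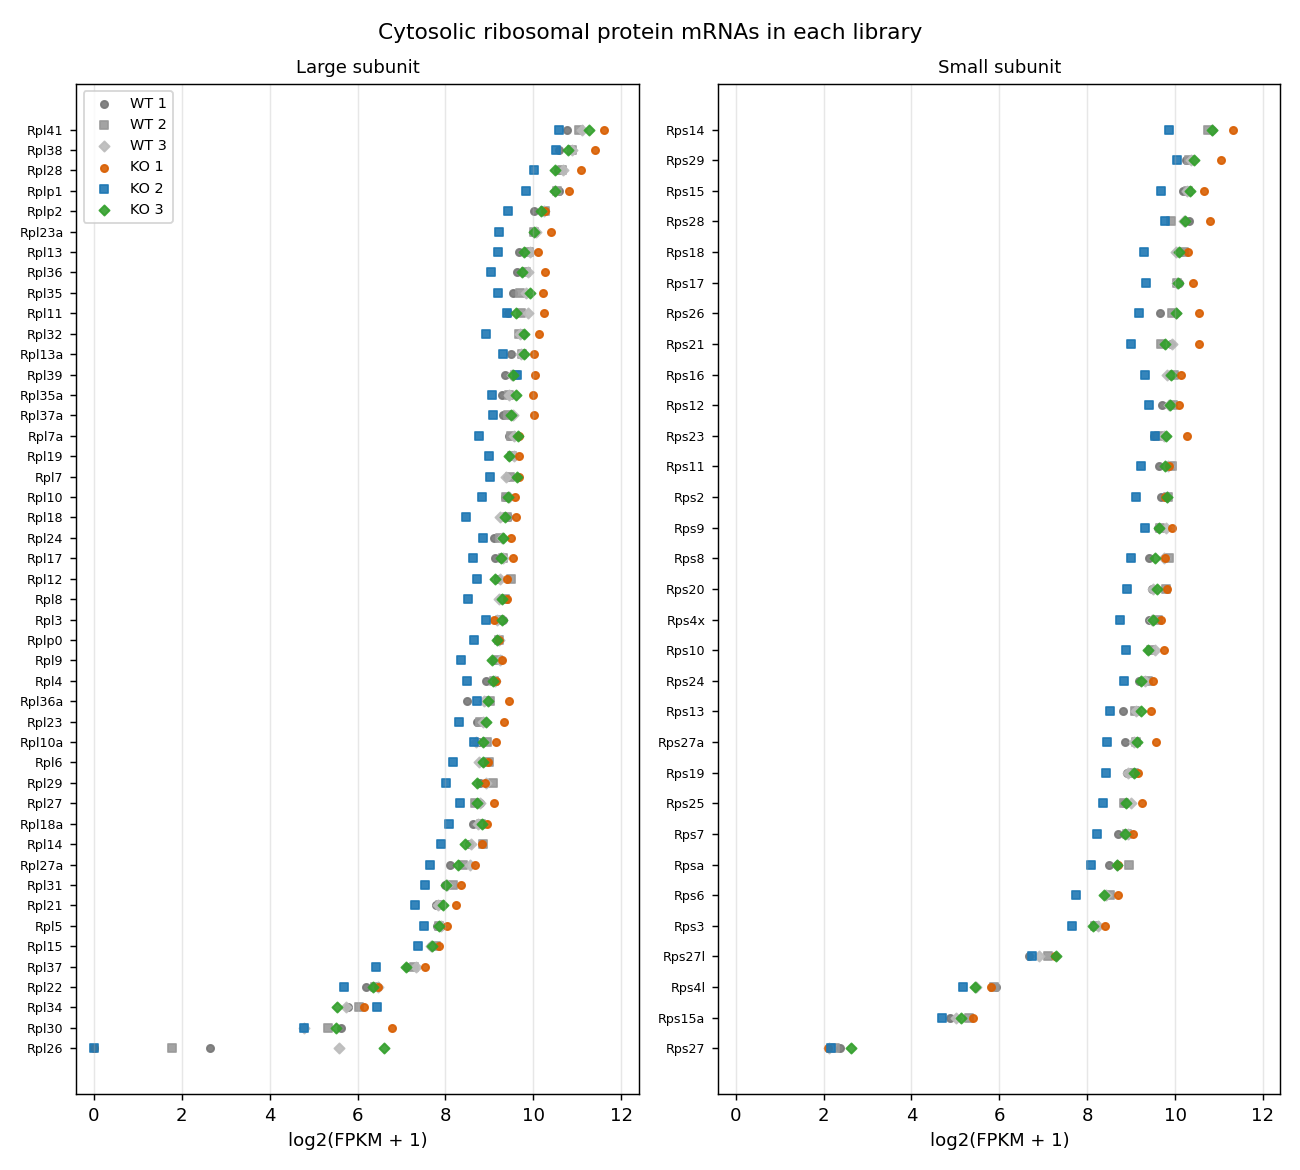
Level of the tested ribosomal protein genes in each library, as log2(FPKM + 1) on the horizontal axis, for genes of the large and small subunit ordered by mean level. WT libraries are grey and KO libraries coloured. KO 2 lies at the left and KO 1 at the right of most rows, and in Rpl26 both are at 0 and their points coincide.

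The highest members included small proteins. *Rpl41*, the shortest ribosomal protein, stood at 1747, 2120 and 2214 FPKM in WT mice and 3101, 1548 and 2473 in KO mice. *Rpl38*, a large subunit protein known for its part in the translation of Hox mRNAs, stood at 1536, 1890 and 1892 FPKM in WT and 2709, 1475 and 1764 in KO. *Rpl28* followed at 1504, 1621 and 1632 FPKM in WT and 2184, 1032 and 1453 in KO. In each of these genes KO 1 was the highest library and KO 2 the lowest. In the small subunit the highest were *Rps14*, at 1843, 1723 and 1823 FPKM in WT and 2541, 934.5 and 1820 in KO, *Rps29*, at 1216, 1276 and 1306 in WT and 2106, 1058 and 1380 in KO, and *Rps15*, at 1168, 1264 and 1240 in WT and 1618, 825.6 and 1297 in KO. The same order of KO 1 over the WT libraries over KO 2 held in all 3. Among the 12 members with the highest WT means, 10 of the 11 neighbouring pairs overlapped in their WT values, so that the order within them is not resolved. The gap was between *Rplp1* (1495 ± 44.3 FPKM, SD, n = 3) and *Rps29* (1266 ± 45.4).

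The 3 members of the acidic stalk, which recruits the translation factors, had these levels. *Rplp0*, the base of the stalk, stood at 574.3, 595.8 and 598.1 FPKM in WT and 595, 402.5 and 581.3 in KO. *Rplp1* stood at 1539, 1495 and 1450 FPKM in WT and 1811, 910 and 1451 in KO, and *Rplp2* at 1042, 1226 and 1220 in WT and 1227, 687.4 and 1152 in KO. *Rplp1* and *Rplp2*, which are present in more copies per ribosome than *Rplp0*, had higher levels per length than *Rplp0* in every library. In each of the 3 genes the groups overlapped, with log2 fold changes of −0.18 ± 0.26 (SE) for *Rplp0*, −0.16 ± 0.34 for *Rplp1* and −0.23 ± 0.32 for *Rplp2* and limma adjusted p of 0.945, 0.963 and 0.947.

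KO and WT mice were compared over all 14247 genes that reached 1 FPKM on average, with limma on log2(FPKM + 1). None of the 78 members had an unadjusted p below 0.05, where 5.88% of all genes tested did (2.77% higher and 3.11% lower in KO). In none did the WT and KO values separate without overlap, where 11.1% of all genes did (5.37% higher and 5.7% lower). No gene of the 14247 passed after adjustment. The smallest unadjusted p among the members was 0.215 (limma adjusted p = 0.877), for *Rpl29*. The log2 fold change was below 0 in 53 of the 78 (50.8% of all genes), with a median of −0.10 over the members and −0.01 over all genes. The median was −0.10 in the large and −0.10 in the small subunit. A missed threshold does not show that the levels were equal, and the standard errors of the stalk genes show how wide the estimates were.

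Several members show how wide the KO values were. The largest fold changes were those of *Rpl26* (log2 fold change −1.13 ± 1.58, SE) and *Rpl30* (0.45 ± 0.44), both listed low and given further down. These values rest on single libraries. For *Rpl26*, whose mean FPKM was higher in KO (31.9) than in WT (18.2), the log2 fold change was −0.01 without WT 3, −0.03 without KO 1 or without KO 2, −3.33 without KO 3 and −3.12 with a pseudocount of 0.1. For *Rpl30* it was −0.10 without KO 1, 0.22 without WT 3 and 0.91 without KO 2. *Rpl29*, a large subunit protein that also occurs at the cell surface, stood at 440.6, 538.2 and 482.8 FPKM in WT and 478.4, 259.5 and 423.6 in KO, a log2 fold change of −0.37 ± 0.28 (SE). KO 1 lay inside the WT range and the other KO libraries below it. *Rpl9* stood at 548.7, 583.3 and 606.2 FPKM in WT and 619.5, 326.1 and 537.2 in KO, with KO 1 above and KO 2 and KO 3 below the WT range. On the other side, *Rpl36a* stood at 359.7, 518.1 and 466.8 FPKM in WT and 702, 417.8 and 497.5 in KO, *Rpl39* at 653, 768.8 and 734.7 in WT and 1048, 789.7 and 741.8 in KO, and *Rps23* at 729.9, 793.9 and 853.7 in WT and 1240, 740 and 892.8 in KO. The groups overlapped in each. An exact permutation test (two-sided, smallest possible p of 0.1 for groups of 3) gave p = 0.2 for *Rpl29* and for *Rpl39*.

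The KO libraries spread around the WT level, and KO 1 and KO 2 carried that spread while KO 3 stayed near WT. Each member was expressed as its deviation from its own WT mean on the log2 scale. The median deviation of the 78 members was −0.09, 0.06 and 0.04 in WT 1, WT 2 and WT 3. It was 0.28 in KO 1 (1.21-fold the WT level), −0.57 in KO 2 (0.675-fold) and 0.01 in KO 3 (1.01-fold), while the median over all genes tested lay between −0.02 and 0.01 in every library. The summed FPKM of the libraries ran the same way, at 539400 in KO 1, 381200 in KO 2 and 449100 in KO 3 against 425200 to 445100 in WT. As a share of that sum the members of KO 1 were inside the WT range and those of KO 2 below it, by the percentages given above. KO 1 was above every WT library in 63 of 78 members (31.1% of all genes), and KO 2 was below every WT library in 72 of 78 (32.6% of all genes). KO 3 was above every WT library in 20 (29.2% of all genes) and below in 13 (28% of all genes). In 58 of 78 members KO 2 was the lowest and KO 1 the highest of the 6 libraries, an order found in 6.5% of all genes.

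**Figure D2:**
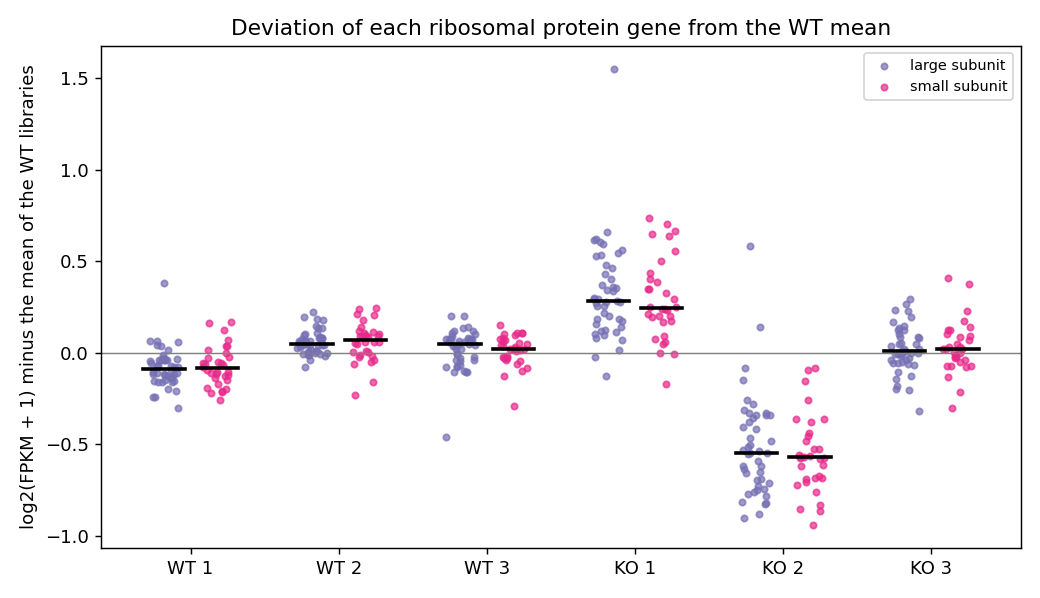
Deviation of each tested ribosomal protein gene from its WT mean, as log2(FPKM + 1) minus the mean of the 3 WT libraries, in each of the 6 libraries. Points are genes of the large and small subunit, without Rpl26, and black bars the medians with it. The medians of KO 1 lie at 0.28 and 0.25, those of KO 2 at −0.55 and −0.57, and those of the other libraries within 0.1 of 0.

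The SD over the 3 KO mice exceeded that over the 3 WT mice in 78 of 78 members on the log2 scale, against 64.4% of all genes. The median coefficient of variation of the members was 7.33% among WT mice and 29.8% among KO mice, and for all genes tested it was 19.1% and 26.7%. Ribosomal protein mRNAs were thus less variable than the median gene among WT mice and more variable than it among KO mice. On the log2 scale the median SD of the members was 0.11 in WT and 0.46 in KO, and that of all genes 0.24 and 0.34. The members were also far more abundant, with a median log2 level of 9.30 against 3.38 for all genes in WT 1. Genes of similar level were not compared apart. The counts of members rest on 1 library on each side. Without KO 2 the median log2 fold change of the members turned to 0.14, 4 members had an unadjusted limma p below 0.05 (13.2% of all genes) and 18 did not overlap (30.7% of all genes), all of them higher. Without KO 1 the median fell to −0.28, none had a p below 0.05 (3.71% of all genes) and 12 did not overlap (17.8% of all genes), all of them lower. Rescaling changed the counts as well. With every library scaled to the same sum, 2 members had such a p (5.24% of all genes) and 12 did not overlap (10.4%). After quantile normalization there were 4 (6.51%) and 19 (12%), after removal of a trend on transcript length 1 (6.12%) and 12 (11.8%), and after removal of trends on length and GC content 0 (4.82%) and 12 (9.88%), most of them lower in KO.

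Both subunits moved together in each library. The median deviation in KO 1 was 0.28 for the large and 0.25 for the small subunit, in KO 2 −0.55 and −0.57, and in KO 3 0.01 and 0.02. The summed FPKM of the large subunit was 1.27, 1.31 and 1.32 times that of the small subunit in WT mice and 1.29, 1.37 and 1.31 times in KO mice. The ratio was 1.3 ± 0.0233 (SD, n = 3) in WT and 1.33 ± 0.0398 in KO, and the groups overlapped. In KO 2, the library with the lowest members, it was the highest of the 6, above the WT values by more than their SD.

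Individual members spread more widely around the family median in the KO libraries, as all genes did around theirs. In WT mice 72, 75 and 75 of the 78 members deviated by no more than 0.2 (log2) from the median deviation of their library. The same held for 49 members in KO 1, 47 in KO 2 and 65 in KO 3. Over all genes tested, 57% to 61.9% were within that distance of the median of all genes in the WT libraries and 31.1% to 36.5% in the KO libraries. The WT libraries enter the mean they are measured against, which makes their deviations smaller by construction. When each member was taken relative to the median deviation of its library, 8 members were higher in every KO library than in any WT library and 3 were lower. The medians of the members, subtracted from all genes, left 6.68% higher and 1.33% lower. The median of all genes lay near 0 in every library, so this is not a like baseline. Without any subtraction 5.37% of all genes were higher and 5.7% lower. The lower members included *Rpl29* and *Rpl9*. *Rpl29* stood at −0.05, 0.09 and −0.05 in WT and −0.3, −0.33 and −0.21 in KO on this relative log2 scale. The 8 higher ones were *Rps23*, *Rps29*, *Rpl41*, *Rpl35a*, *Rps13*, *Rpl23*, *Rpl13a* and *Rpl21*. Of these *Rps23* had the largest difference, from −0.03, −0.05 and 0.07 in WT to 0.37, 0.47 and 0.17 in KO. This scale was set by the members themselves, so the counts are a description.

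Most members of known roles outside the ribosome or in its control had the library order of the family, with *Rpsa* as an exception. *Rpl5* and *Rpl11*, which bind MDM2 when ribosome assembly fails, stood at 223.8, 229.8 and 238.6 FPKM in WT and 260.7, 181.8 and 231.7 in KO for *Rpl5*, and at 690.6, 842.9 and 941.2 in WT and 1210, 673.4 and 784.4 in KO for *Rpl11*. *Rps6*, the substrate of the S6 kinases, stood at 343.5, 363.4 and 342.8 FPKM in WT and 413.2, 214.2 and 332.1 in KO. *Rps3*, which also acts in DNA repair, stood at 295.7, 288 and 304 FPKM in WT and 339.3, 200.6 and 280.4 in KO. In all 4 genes KO 1 was the highest library and KO 2 the lowest. *Rps19*, the gene most often mutated in Diamond-Blackfan anaemia, stood at 477, 533.9 and 482.8 FPKM in WT and 570.6, 344.7 and 534.7 in KO, and *Rps25*, which is needed by several viral internal ribosome entry sites, at 456.8, 457.4 and 510.4 in WT and 603.3, 329.4 and 470.1 in KO. *Rps27a*, made as a fusion with ubiquitin, stood at 464.2, 550.8 and 534.2 FPKM in WT and 756.5, 347 and 560.6 in KO. *Rpsa*, which is also known as a laminin receptor, stood at 361.6, 496.2 and 410.4 FPKM in WT and 418.5, 272.7 and 411.4 in KO, and here KO 1 and KO 3 lay within the WT range. The smallest p among these 8 genes, that of *Rpsa*, was 0.431 before adjustment and 0.933 after it by limma.

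*Rpl3*, which lies near the peptidyl transferase centre, departed from this order. It stood at 631.8, 606 and 575.7 FPKM in WT and 553, 485.5 and 625.1 in KO, with KO 1 below every WT library (log2 fold change −0.13 ± 0.24, SE). KO 1 was below every WT library in 3 of the 78 members (28.7% of all genes), the other two being *Rpl26* and *Rps27*. *Rpl10*, a protein that joins the large subunit late, in the cytoplasm, followed the common order, at 653.2, 661.3 and 698.3 FPKM in WT and 772, 458.4 and 681.2 in KO. *Rpl22*, which mice can live without, was among the lower members, at 72.4, 83.4 and 88 FPKM in WT and 88, 51 and 80.6 in KO.

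Paralogues of narrow tissue distribution were close to absent. *Rpl3l*, which replaces *Rpl3* in heart and skeletal muscle, was listed at 0.387, 0 and 0.481 FPKM in WT and at 0 in all KO libraries, and 3 fragments on its transcript would give between 0.183 and 0.336 FPKM. *Rpl10l*, which stands in for *Rpl10* in male germ cells, was listed at 0 in all WT libraries and at 0.429, 0.173 and 0.0957 FPKM in the KO libraries. With 3 fragments worth 0.246 to 0.451 FPKM on it, only KO 1 exceeded its own floor of 0.367. *Rpl39l*, the germ cell form of *Rpl39*, was listed at 0.944 FPKM in WT 1, 0.196 in KO 1 and 0 elsewhere. Each was at most 0.145% of the gene it is named after in any library. The 7 heart and skeletal muscle markers summed to 8.92 to 10.1 FPKM in WT and 6.64 to 7.54 in KO, with *Ckm*, *Myh2* and *Actc1* listed at 0 in at least 1 library. Without a filter on low values *Rpl10l* did not overlap between the groups (limma unadjusted p = 0.064), with all of its values near or below what 3 fragments give.

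Other paralogues were expressed beside their common form. *Rps27l*, a p53-responsive relative of *Rps27*, stood at 100.9, 136.8 and 118.5 FPKM in WT and 154.2, 105.9 and 156.7 in KO (log2 fold change 0.21 ± 0.23, SE, limma adjusted p = 0.927). KO 1 and KO 3 were above every WT library, and KO 2 was inside the WT range and not below it as in most members. *Rps4l* stood at 59.5, 57.4 and 43 FPKM in WT and 55.6, 35.1 and 42.7 in KO, next to 680.8, 785.5 and 715.5 in WT and 815.9, 427.7 and 727.3 in KO for *Rps4x*, the X-linked form. *Rps4l* was 7.35% ± 1.37 (SD, n = 3) of *Rps4x* in WT and 6.96% ± 1.18 in KO, and the groups overlapped. *Rpl22l1*, a paralogue of *Rpl22* that the naming rule leaves out, was above *Rpl22* in every library, at 186% ± 19.9 (SD, n = 3) of it in WT and 215% ± 19.2 in KO, with overlap.

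A few members were listed far below the rest, and each of 4 shares part or nearly all of its transcript with a copy elsewhere in the genome that was listed far above it. The part of read assignment in their low values was not tested. The mouse genome holds many processed copies of ribosomal protein genes. Of the 81 members, 72 shared at least 1 stretch of 100 bases of their annotated transcript exactly with the transcripts of another gene, and 31 shared at least 50% of such stretches. In 4 tested members the copy that shared the most stretches was listed in the files at a higher level than the member itself. These were *Rps27*, *Rpl26*, *Rpl30* and *Rpl34*, and in all 4 the copy has a single exon while the member has 4 or 5.

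*Rps27* (chr3:90212522-90213651, - strand, 4 exons, GRCm38) was the lowest tested member, at 4.22, 3.81 and 3.38 FPKM in WT and 3.26, 3.52 and 5.21 in KO. Its copy *Rps27rt* (chr9:114982366-114982739, - strand), which holds 98.4% of the 100-base stretches of *Rps27*, stood at 1492, 1609 and 1510 FPKM in WT and 2359, 860.6 and 1532 in KO. The listed level of *Rps27rt* thus had the size and the library order of a common member, and that of *Rps27* had neither. *Rpl26* (chr11:68901583-68906989, + strand, 4 exons) was listed at 5.22, 2.42 and 46.9 FPKM in WT and 0, 0 and 95.7 in KO. *Gm15772* (chr5:3236431-3236868, + strand), annotated as a processed pseudogene with 32.5% of the stretches of *Rpl26*, stood at 1052, 1118 and 1066 FPKM in WT and 1510, 655.2 and 1070 in KO. Listed values of *Rpl26* ran from 0 to 95.7 FPKM, while those of its copy kept to the library order of the common members.

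*Rpl30* (chr15:34440505-34443640, - strand, 4 exons) was listed at 48.3, 38.9 and 26.5 FPKM in WT and 109.9, 26.4 and 44.5 in KO, and *Gm12191* (chr11:49678710-49679057, - strand, 32.5% of the stretches) at 582.6, 510.2 and 594.6 in WT and 787.7, 583.4 and 590.1 in KO. *Rpl34* (chr3:130726831-130730398, - strand, 5 exons) was listed at 53.8, 64.4 and 52.6 FPKM in WT and 70, 85.4 and 45.2 in KO, and *Rpl34-ps1* (chr6:71124610-71124963, + strand, 31% of the stretches) at 675.1, 683.5 and 662.6 in WT and 841.7, 483.9 and 662 in KO. *Rpl34* was the member with the highest deviation in KO 2, 0.58, whereas the sum of *Rpl34* and its copy deviated by −0.36 there. With member and copy summed, KO 1, KO 2 and KO 3 deviated from WT by 0.62, −0.83 and 0.00 for *Rps27*, 0.46, −0.74 and 0.09 for *Rpl26*, 0.58, 0.03 and 0.08 for *Rpl30* and 0.32, −0.36 and −0.05 for *Rpl34*. In 3 of the 4 sums KO 1 was the highest and KO 2 the lowest of the 6 libraries, and the sum for *Rpl30* was not low in KO 2. FPKM values do not tell which locus the fragments came from, so the 4 members and their copies are uncertain one by one.

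**Figure D3:**
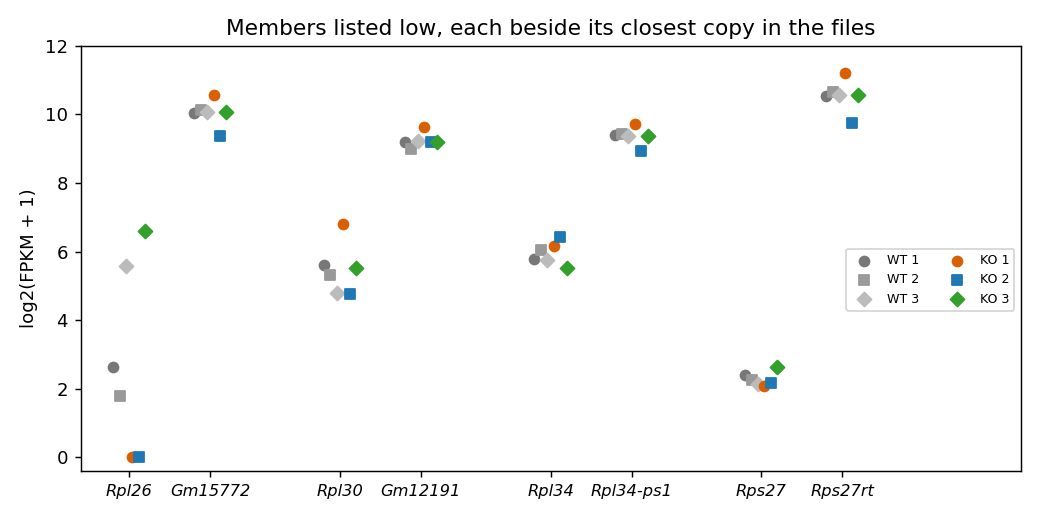
Level of 4 members listed low, each beside the gene that shares more of its 100-base stretches than any other gene, as log2(FPKM + 1) in each of the 6 libraries. The copies lie between 484 and 2359 FPKM and the members between 0 and 109.9 FPKM.

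*Rps15a*, another of the low members, was not among the 4, and only the copy with the most shared stretches was considered. It shared 154 stretches of 100 bases with 5 other genes, against 157 in *Rpl26* and 153 in *Rpl30*. The part of read assignment was not tested here either. It stood at 28.3, 38.6 and 31.5 FPKM in WT and 41.1, 25.1 and 34.2 in KO, and the transcript used for its length here has 5130 bases, whereas the members have a median of 751. Its libraries followed the common order, with KO 1 highest and KO 2 lowest. The length that the authors divided by is not given in the sources used here.

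The members are short, and the libraries differed along transcript length. The median length was 751 bases for the tested members and 2801 for all genes with a length, and when all genes were split by length into 5 groups of equal number, 71 of 78 members fell in the shortest group. Over all genes the Spearman correlation of the deviation with length was between 0.05 and 0.07 in the WT libraries and −0.31, 0.25 and −0.13 in KO 1, KO 2 and KO 3, as a description across 14173 genes that share a library. The shortest group of all genes deviated by a median of 0.25 in KO 1, −0.16 in KO 2 and 0.10 in KO 3. The members were close to that group in KO 1, at 0.28, and lay below it in KO 2, at −0.57. After a loess trend on length was removed from each library, the median deviation of the members was −0.02 in KO 1, −0.51 in KO 2 and −0.07 in KO 3, and after removal of trends on length and GC content 0.01, −0.43 and −0.07. The part of transcript length in the deviations of the members was not tested.

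**Figure D4:**
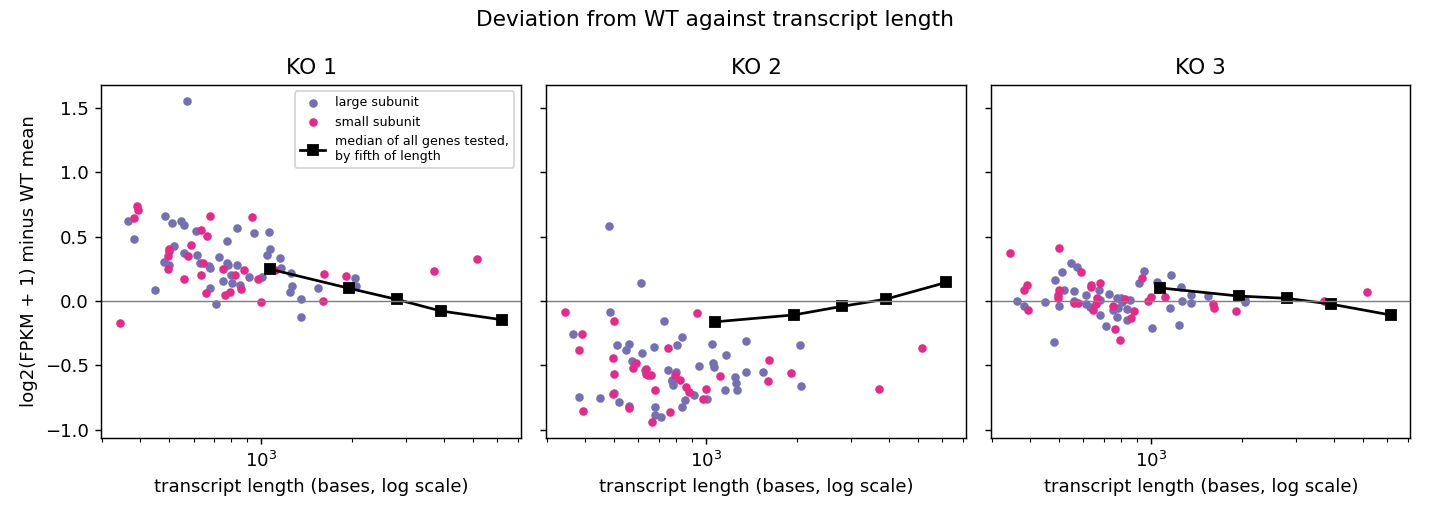
Deviation of each tested ribosomal protein gene from the WT mean (log2 scale, without Rpl26) against the length of its annotated transcript in bases (log scale), in KO 1, KO 2 and KO 3. Black squares are the medians of all genes tested in 5 groups of length, which fall from 0.25 to −0.15 in KO 1 and rise from −0.16 to 0.14 in KO 2.

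Within the family, too, the shortest transcripts deviated most in KO 1. The 24 members of at most 600 bases had a median deviation of 0.42 in KO 1, −0.47 in KO 2 and 0.08 in KO 3, and the 20 members over 1000 bases 0.20, −0.56 and 0.00. *Rps29* (390 bases), *Rps21* (394), *Rps28* (382) and *Rpl38* (364), all short, were among those with a high KO 1 value. Not all short members were high there. *Rps27* (345 bases), the shortest, deviated by −0.17 in KO 1, and *Rplp2* (449 bases) by 0.08. *Rps21* stood at 964.2, 822.6 and 982.3 FPKM in WT and 1499, 507.5 and 876.5 in KO, and *Rps28* at 1267, 963.1 and 1183 in WT and 1763, 867.7 and 1202 in KO. Over the 78 members the Spearman correlation of the log2 fold change with length was −0.34, a description across genes. The difference between members with and without a pyrimidine run near their start was not tested. The 34 with a run had a median deviation of 0.29, −0.51 and 0.00 in KO 1, KO 2 and KO 3, the 23 without one 0.24, −0.56 and 0.02, and the 21 with no promoter entry, which could not be placed in either group, 0.28, −0.67 and 0.02.

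Ribosome proteins outside the naming rule were mostly low in KO 2 as well. *Rps3a1*, a small subunit protein gene, stood at 600.5, 670.5 and 695.4 FPKM in WT and 779.8, 381.8 and 671.3 in KO. *Fau*, whose product is a ubiquitin-like protein fused to Rps30, stood at 711.2, 774.9 and 778.3 FPKM in WT and 1097, 562.8 and 844.9 in KO. *Gnb2l1*, which encodes the RACK1 scaffold on the small subunit, stood at 322.5, 352.8 and 330.4 FPKM in WT and 320, 186.8 and 346.4 in KO. In *Gnb2l1* KO 1 was below every WT library. The 8 genes of this list that were tested, which include *Rps15a-ps6*, a pseudogene by its symbol, had a median deviation of 0.36, −0.68 and 0.04 in KO 1, KO 2 and KO 3, and none had an unadjusted p below 0.05 (5.88% of all genes). Without that pseudogene the medians were 0.25, −0.70 and 0.05, with KO 1 above every WT library in 5 of 7 genes (31.1% of all genes) and KO 2 below in 7 (32.6%). The 20 translation factors and other genes with TOP mRNAs, among them *Eef1a1*, *Eef2* and *Tpt1*, had medians of 0.18, −0.45 and 0.18, with none below that p. The genes of this list had a median length of 1861 bases, and the difference between it and the members was not tested.

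**Figure D5:**
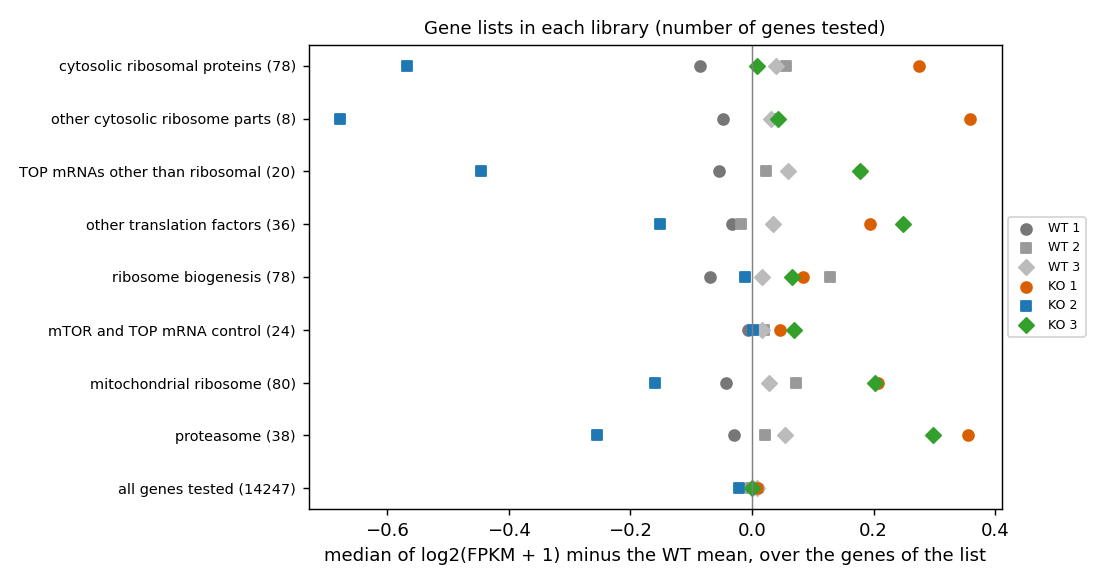
Median deviation from the WT mean (log2 scale) of each gene list in each of the 6 libraries, with the number of genes tested in brackets. In KO 2 the cytosolic ribosomal proteins, the other ribosome parts and the other TOP mRNAs lie between −0.68 and −0.45, and the remaining lists between −0.25 and 0.00.

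The lists for the making of ribosomes and for mTOR had medians near 0 in KO 2, and that of the other translation factors was below 0. The 78 ribosome biogenesis factors had median deviations of 0.08, −0.01 and 0.07 in KO 1, KO 2 and KO 3, and 1 (1.28%) had an unadjusted p below 0.05, against 5.88% of all genes. This was *Ltv1*, an assembly factor of the small subunit, at 8.03, 5.77 and 7.74 FPKM in WT and 10.8, 11.8 and 11.5 in KO (log2 fold change 0.61 ± 0.22, SE, limma adjusted p = 0.841). The 24 genes of mTOR signalling and TOP mRNA control had medians of 0.05, 0.00 and 0.07, with 2 (8.33%) higher at an unadjusted p below 0.05, against 2.77% of all genes in that direction. *Eif4ebp1*, an inhibitor of the cap-binding protein, stood at 10.6, 8.14 and 6.22 FPKM in WT and 13.7, 11.3 and 12.6 in KO (limma unadjusted p = 0.039), and *Pdcd4* at 22.1, 22 and 19.9 in WT and 31.1, 29.2 and 26.4 in KO (limma unadjusted p = 0.0462). The groups did not overlap in either. The 36 other initiation and elongation factors had medians of 0.19, −0.15 and 0.25, and 1 (2.78%, against 5.88% of all genes) had such a p, *Eif4e*, the cap-binding protein, at 19.1, 18.1 and 20.3 FPKM in WT and 35.2, 25.3 and 23.6 in KO. All of these had a limma adjusted p of 0.841.

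The mitochondrial ribosome, the particle to which Crif1 itself belongs, was described in the same way. Its 80 tested genes had median deviations of 0.21, −0.16 and 0.20 in KO 1, KO 2 and KO 3. KO 3 was thus close to KO 1 in this list, as it was in the other translation factors and in the proteasome. At an unadjusted limma p below 0.05, 3 were higher, 3.75% of the list against 2.77% of all genes in that direction. They were *Mrpl38*, at 14.5, 19.6 and 21.1 FPKM in WT and 29.2, 30.1 and 28.7 in KO, *Mrpl39* and *Mrps6*. The proteasome, another large complex with coordinated mRNAs, had medians of 0.35, −0.25 and 0.30 over 38 genes. The difference between these lists and the members was not tested.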

How the data were processed

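RNA was extracted from brain microvessels with TRIzol, and libraries were made with the NEBNext Ultra II Directional kit. The authors trimmed the reads, mapped them with TopHat (mm10, per the submitters' processing notes) and deposited FPKM values for 23183 symbols per library. Their tool and annotation for FPKM, their treatment of reads that map to several places and any scaling between libraries are not given in the sources used here. No read counts were used, and libraries were grouped by the genotype of the mouse.

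Values were analyzed as log2(FPKM + 1), a scale that understates changes of low genes, for 14247 genes averaging 1 FPKM or more, with limma 3.58.1 (R 4.3.3, trended variance, no block) and Benjamini-Hochberg adjustment over these genes. The members and lists were chosen with earlier results of these data known. Members were named if they were tissue paralogues, were listed below 1 FPKM or at 0, were the 3 highest or lowest of a subunit, had an unadjusted p below 0.05, had the 4 largest changes in either direction or had a fixed role. The text also names members counted in a result. Of the other lists, the 2 genes with the largest changes were fixed for description, and those named were mostly chosen after their values were seen.

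Lengths, exons and shared 100-base stretches came from GENCODE M21 (GRCm38), using the transcript of median length in the best annotation class (22830 symbols matched), and start sites from RefSeq. Depth was estimated from the spacing of the smallest values and annotated lengths of 3178 genes, and 3 fragments on 1 kb correspond to 0.252 to 0.461 FPKM, which covers counting error only. In data simulated for KO against WT over 14247 genes, of 200 genes changed 1.5-fold 107 had an unadjusted p below 0.05 and 0 passed after adjustment, and of 200 changed 4-fold 198 and 150 did. Alternatives were other filters, scalings, pseudocounts and variance models, a replicate block, corrections for length and GC content (loess, span 0.3) and leaving out each library. Same-numbered WT and KO libraries had correlations of 0.04, 0.03 and 0.00 across genes, and different-numbered ones −0.07 to 0.05. The labels do not say whether the numbers pair the mice, and these correlations cannot decide it. Scripts used Python 3.11.15 with pandas 2.3.3, numpy 2.4.6 and scipy 1.17.1. Results for 2 genes that were examined are not reported here, though the counts and medians include them.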

Additional observations from a re-analysis of the deposited data

How the results depend on the processing

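The fold changes of the members rest on KO 1 and KO 2. Over the fits that leave out each library in turn, the median log2 fold change ran from −0.28 (without KO 1) to 0.14 (without KO 2), and over the 12 other alternatives from −0.20 to −0.08. Large subunit medians ran from −0.26 to 0.15 and small subunit medians from −0.29 to 0.13, and the KO minus WT share of summed FPKM, −0.81 percentage points, from −1.41 to 0.12, with the change of sign again without KO 2. Members with an unadjusted limma p below 0.05, 0 as reported, numbered 2 with every library scaled to the same sum (*Rpl29* among them), 4 after quantile normalization (*Rpl29*, *Rpl14* and *Rpl9* among them) and 1 after length correction (*Rpl29*), all lower, and 0 to 4 with a library left out (4 without KO 2, where 13.2% of all genes had one, and 1, *Rpl26*, without KO 3, where 6.97% did). Members without overlap, 0 as reported, numbered 1 with no filter (9.83% of all genes), 12 scaled to the same sum (10.4%), 19 after quantile normalization (12%, 17 of them lower), 12 after length correction (11.8%), 12 after correction for length and GC content (9.88%), and 1 to 18 with a library left out (18 without KO 2 and 12 without KO 1, and 1 to 4, well below the share of all genes, without each of the others, where 16.9% to 23.6% of all genes did not overlap). Scaling to the same sum, which moved the median of all genes to −0.06, put 60 members below 0 instead of 53, and correction for length put 69 there. The cause was not tested. The labels do not say whether the numbers pair the mice. With a replicate block 0 members had such a p and 871 of all genes did, against 838 without it. For the 34 tested members selected for description, 56 of 611 values under the 18 alternatives changed sign, 14 of them without KO 2, and none of the 56 had a p below 0.05. With 3 mice a group, a depth of 6500000 fragments in KO 2 and no read counts, a common shift of a library cannot be told apart from its preparation.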
